A study of Rattus norvegicus with 12 samples.

Results

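Exosomes from progenitors that overexpress miR-221-3p were compared with plain exosomes in rat nucleus pulposus cells that were under ferroptotic stress from erastin. The members are the 6 libraries with erastin, of 12 in the series: 3 given exosomes of nucleus pulposus progenitor cells (NPPC-Exo) and 3 given exosomes of such progenitors overexpressing miR-221-3p (miR-Exo). Of the 21071 genes in the deposited table, 15650 had enough counts to be tested. Both groups were the same kind of culture, in DMEM/F12 with serum, and both received erastin (0.1 to 5 µM for 48 h, with no dose given for a single library) and exosomes, for which the protocol gives 50 µg/mL, naming NPPC-Exo. The labels name no strain, age or sex. Nothing in them tells whether replicate libraries stem from different animals or dishes, so p values measure the spread between these libraries, which may be technical. No library without exosomes enters the comparison, so what both kinds of exosome share cannot be seen in it. Every sign below is miR-Exo relative to NPPC-Exo.

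Nucleus pulposus cells fill the gel core of the intervertebral disc and keep it hydrated by making aggrecan and type II collagen. Erastin blocks system xc-, the cystine importer, which starves the cell of glutathione and drives ferroptosis, in which iron feeds the oxidation of membrane lipids until the cell dies. Exosomes are small vesicles that carry RNA and protein between cells, and a microRNA lowers messenger RNAs that pair with its seed. miR-221 and its neighbour miR-222 are best known for lowering the cell cycle inhibitor p27, the product of Cdkn1b.

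The mature sequences are shown because the seed, bases 2 to 8 in capitals, decides which messengers a microRNA pairs with. They are RefSeq entries on the GRCr8 build, on the plus strand of chromosome X, where miR-222-3p lies at X:6022682-6022702 and miR-221-3p at X:6023246-6023268.
rno-miR-221-3p: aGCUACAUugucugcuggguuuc
rno-miR-222-3p: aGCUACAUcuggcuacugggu
rno-miR-221-5p: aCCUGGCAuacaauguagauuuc
Of 724 mature rat miRNAs in the reference table, 2 carry the seed of miR-221-3p, these being miR-221-3p and miR-222-3p. The 5p strand of the same hairpin has another seed.

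The hairpin gene Mir221 had 24, 21 and 22 counts with NPPC-Exo, whereas 1651, 1629 and 1578 were found with miR-Exo. As CPM, the count relative to the scaled library total, these were 0.411, 0.318 and 0.327 against 24.4, 23.9 and 24.4. The miR-Exo libraries were all higher, by a log2 fold change of 6.10 ± 0.12 (standard error), with an adjusted p of 4.4e-12. The rise without erastin was 6.47, and the difference between them was -0.37 ± 0.18 (adjusted p = 0.39). Mir222 stayed at 1, 1 and 1 counts against 1, 2 and 1, too few to test. Long total-RNA libraries count the hairpin and its precursors, so these values do not measure mature miR-221-3p. Reads of vesicle RNA and of the cells' own RNA cannot be told apart.

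Library totals ran from 54616827 to 63574700 counts with NPPC-Exo and from 56418635 to 59322219 with miR-Exo. At that depth 3 counts correspond to 0.044 to 0.0514 CPM. The correlation of log2 CPM was 0.9908 to 0.995 within a group and 0.969 to 0.9798 between groups, and the leading principal component, with 72.2% of the variance of the 6 libraries, separated the kinds of exosome. Mitochondrial genes took 3.96% of the counts with NPPC-Exo, the same in each library, and 4.51% to 4.99% with miR-Exo. The 50 most counted genes took 22.9% to 23.5% and 20.5% to 20.8%.

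With erastin, 4906 of 15650 genes changed between the kinds of exosome, 31.3% of those tested, at an adjusted p under 0.05. Of these, 2439 were higher with miR-Exo (15.6%) and 2467 lower (15.8%). Counts of list members below are to be read beside these shares. A change of at least 2-fold was found for 783 genes (5.00%), of which 371 were higher (2.37%) and 412 lower (2.63%). Higher genes made up 47.4% of these, and 57.5% under scaling by library size alone. The 3 libraries of one group lay wholly above or below the other's for 7505 genes (48.0%), 3840 of them higher (24.5%) and 3665 lower (23.4%). Most changes were small, and the median log2 fold change over all genes was 0.011. Scaling by library size alone moved that median to 0.115 and the share of calls that were higher from 49.7% to 68.6%, so small rises and falls depend on the scaling. In bulk libraries such as these, fewer cells of a kind and less RNA per cell cannot be told apart.

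**Figure D1:**
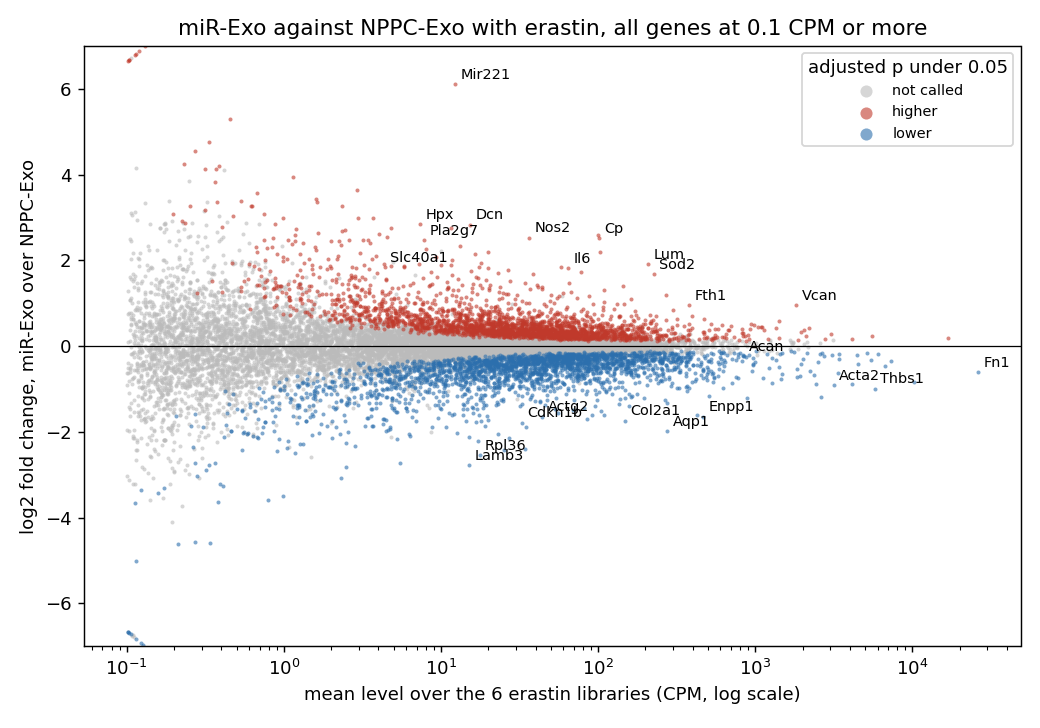
Log2 fold change of miR-Exo over NPPC-Exo with erastin (vertical axis) against the mean CPM of the 6 libraries (horizontal log axis), for the 15292 tested genes at 0.1 CPM or more and within the vertical limits. Mir221 stands apart at 6.10, Cp and Lum are high at high levels, and Aqp1, Enpp1 and Col2a1 lie far below 0.

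A second set of values moves with the fall of many genes. The 6 libraries without erastin enter this comparison only through the gene filter, the scaling and the shared estimate of spread. Within their groups 1 component held 48.4% of the spread over the 10162 genes with a mean of at least 5 CPM. Its loadings rank these genes. In both of those groups it set replicate 1 (-0.65 with NPPC-Exo and -0.48 with miR-Exo) apart from replicates 2 and 3 (0.21 to 0.42). Of the ranked genes that fell at least 2-fold with erastin, 120 of 199 (60.3%) lay in the lowest 10% of loadings. Of those that rose at least 2-fold, 27 of 127 (21.3%) lay in the highest 10% and 8 (6.3%) in the lowest. Of all ranked genes called lower, 443 of 2158 (20.5%) were in the lowest 10%. Without both ends, 4170 of 13616 genes were called, and 618 at least 2-fold, counting also genes too low to be ranked. The part of this component in the results was not tested, and genes at its ends are marked below as low-end or high-end genes.

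The genes with the largest rises included secreted proteins of iron binding, matrix and host defence. Hpx, the plasma haem-binding protein hemopexin, had 2.53, 1.56 and 1.37 CPM with NPPC-Exo and 12.3, 14.5 and 12.1 with miR-Exo (log2 fold change 2.84 ± 0.31, adjusted p = 2.5e-05). Dcn, the small proteoglycan decorin and a high-end gene, went from 2.89, 4.07 and 4.31 to 26.4, 28.9 and 25.0 CPM (2.83 ± 0.18). Cp, the copper ferroxidase ceruloplasmin, had 30.8, 30.5 and 28.9 CPM against 173, 182 and 161 (2.52 ± 0.09, adjusted p = 3.3e-09). In each of these the groups were far apart beside the spread of their libraries. Pla2g7, an enzyme that cleaves oxidised phospholipids, had 2.18, 2.18 and 2.82 CPM against 12.6, 14.1 and 13.1 (2.47 ± 0.16). Pi15 (3.27), the secretory protease inhibitor Slpi (2.61), Lypd1 (2.54), Myl1 (2.44) and the low-end gene Nup210 (2.33), a nuclear pore protein, rose too. The high-end genes Scin (2.76), Cxcl6 (2.59) and Nos2 (2.53), the inducible nitric oxide synthase, complete the 12 largest, a count that leaves out small RNA genes and so Mir221, whose rise was larger. DESeq2 did not call these last 3 (adjusted p of 0.204, 0.0752 and 0.0779), whose NPPC-Exo libraries spread widely, as with 4.26, 16.4 and 11.7 CPM for Nos2 against 61.8, 65.1 and 60.0.

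Among the 12 largest falls, Lamb3, the laminin beta-3 chain and a high-end gene, dropped from 24.3, 25.5 and 29.2 to 3.77, 3.72 and 4.01 CPM (-2.78 ± 0.17, adjusted p = 2e-07), with libraries that hardly differed within a group. Krt7, an epithelial keratin, had 46.2, 39.9 and 41.7 CPM against 7.48, 4.98 and 11.3 (-2.43 ± 0.23). G0s2 (-2.49), a lipase inhibitor, the retinoic acid binder Crabp1 (-2.33), the nucleoside kinase Nme3 (-2.29) and Tnfaip8l1 (-2.14) also fell. For these, the difference between the effects with and without erastin had standard errors of 0.52, 0.44, 0.64 and 0.67. That of Lamb3 was 0.24, and those of the low-end genes Col9a2 and Hmga1 were 0.50 and 0.70. The other 6 were low-end genes with a wide spread within groups: Hist1h2bq (-2.73), Rpl36 (-2.55), Rps10 (-2.40), Gadd45g (-2.22), Col9a2 (-2.17) and Hmga1 (-2.14). Rpl36, for example, had 24.6, 43.9 and 21.6 CPM against 5.11, 0.982 and 9.35, and Hmga1, a chromatin protein, 42.4, 44.0 and 46.2 against 8.39, 3.47 and 18.3. Without miR-Exo replicate 3 the log2 fold change was -3.32 for Rpl36 and -2.92 for Hmga1, and without miR-Exo replicate 2 it was -2.08 and -1.75. Histone and ribosomal protein genes have near-identical copies, and how reads with several matches were counted is not given in the sources used here, so these values are uncertain.

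Genes reported in the literature as miR-221 targets did not move one way. Of 37 tested, 12 were lower and 10 higher, together 59.5%, and the median log2 fold change was -0.0931 (0.0105 under library size alone, where 7 were lower and 11 higher). Without miR-Exo replicate 1, 6 were higher. The largest fall was that of Cdkn1b, from 46.1, 54.5 and 51.3 to 16.1, 13.7 and 14.1 CPM (-1.79 ± 0.14 on the log2 scale, adjusted p = 1.3e-06), and it is a low-end gene. Angptl2, a secreted angiopoietin-like protein, had 24.9, 20.7 and 23.9 CPM against 8.47, 7.81 and 9.43 (-1.44 ± 0.09). Adipor1, an adiponectin receptor, had 137, 134 and 142 CPM against 60.1, 56.6 and 57.5 (-1.25 ± 0.05, adjusted p = 1.6e-08). Timp3, an inhibitor of matrix proteases, fell from 3.22, 3.07 and 3.69 to 1.41, 1.89 and 1.91 CPM (-0.94 ± 0.14), the chromatin remodeller Arid1a from 255, 253 and 259 to 164, 144 and 154 (-0.73 ± 0.08), and the transcription factor Ets1 from 185, 197 and 197 to 135, 137 and 123 (-0.55 ± 0.05).

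Other reported targets were higher with miR-Exo. Cdkn1c, the cell cycle inhibitor p57, rose from 1.71, 2.06 and 1.84 to 3.35, 4.08 and 3.78 CPM (1.00 ± 0.26). Ptpn4, a tyrosine phosphatase, had 23.0, 23.6 and 25.9 CPM against 46.2, 43.2 and 35.4 (0.78 ± 0.10), and Reck, a membrane inhibitor of metalloproteinases, 74.4, 78.8 and 78.0 against 110.0, 102 and 104 (0.45 ± 0.06). The apoptosis activator Bmf (0.65 ± 0.17), the adhesion molecule Icam1 (0.40 ± 0.09) and the retinoblastoma gene Rb1 (0.33 ± 0.07) rose as well. Bmf lost its call without miR-Exo replicate 1 (0.54, adjusted p = 0.0549), and the fall of the low-end gene Foxo3 (-0.38 ± 0.13) was lost on leaving out any but miR-Exo replicate 1. Whether the messengers hold seed sites was not analysed here.

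**Figure D2:**
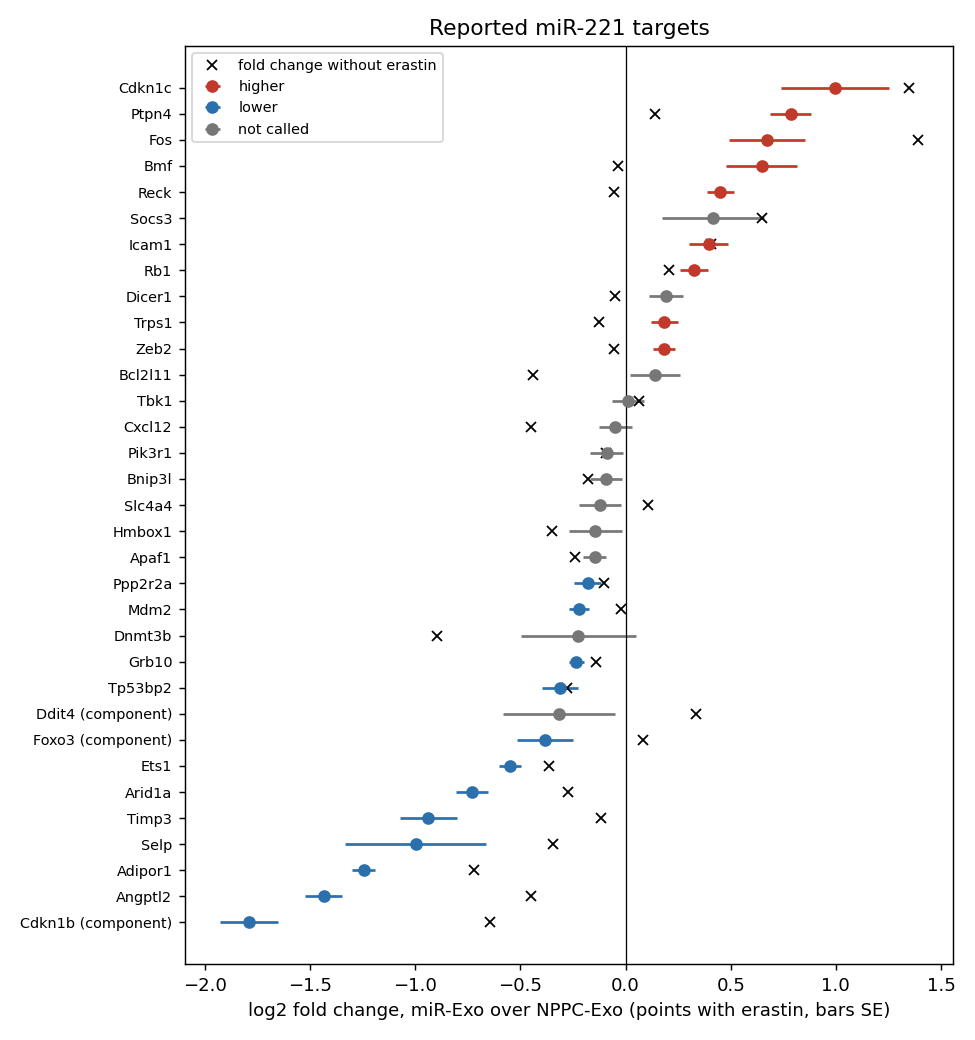
Log2 fold change with its standard error for 33 of the 37 tested reported miR-221 targets with erastin (points), and without erastin (crosses). Targets with the widest standard errors, and a gene not reported here, are left out. Genes at the low end carry the word component. Cdkn1b, Angptl2 and Adipor1 fell by over 1 with erastin, and each had a smaller fall without it.

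Of 30 genes of iron handling tested, 14 rose and 3 fell, and the median was 0.382 (0.331 to 0.391 on leaving out 1 library). Slc40a1, the ferroportin that exports iron from the cell, rose from 1.83, 1.88 and 2.01 to 6.53, 7.23 and 6.77 CPM (1.84 ± 0.14, adjusted p = 1.1e-06). Its partner Cp, which oxidises the exported iron, is given above. Fth1, the ferritin heavy chain that stores iron, had 249, 261 and 266 CPM against 497, 495 and 503 (0.95 ± 0.10), while Ftl1, the light chain, stood at 23.7, 24.1 and 22.1 and 18.8, 22.2 and 27.7 (-0.03 ± 0.13, not called). Both ferritin genes have near-identical copies. Genes of uptake and release inside the cell rose as well. Slc39a14, which imports non-transferrin iron, had 111, 119 and 119 CPM against 182, 178 and 166 (0.59 ± 0.05). The ferritin receptor Ncoa4 rose by 0.38 ± 0.05, Fbxl5, which senses iron and degrades IRP2, by 0.73 ± 0.07, and the ferrireductase Steap2 by 0.66 ± 0.07. Tfrc, the transferrin receptor, had 142, 154 and 144 and 156, 151 and 155 CPM (0.07 ± 0.07, not called), and Tf, transferrin, fell from 47.4, 47.3 and 52.6 to 32.1, 32.4 and 31.3 (-0.62 ± 0.07).

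Of the 46 tested genes of ferroptosis execution and defence, 10 rose and 7 fell, with 37.0% called beside 31.3% of all genes and a median of 0.0887. Slc7a11, the cystine importer that erastin blocks, had 14.6, 13.2 and 14.5 CPM against 17.5, 19.7 and 17.5 (0.37 ± 0.08, adjusted p = 0.0023). Without erastin it fell by 0.58, and the difference between the effects was 0.95 ± 0.11 (adjusted p = 0.00034). Gpx4, the peroxidase that removes lipid peroxides and a high-end gene, had 39.2, 43.5 and 40.2 and 39.2, 60.5 and 43.2 CPM (0.22 ± 0.20, not called), with overlapping groups. Aifm2, the FSP1 that recycles ubiquinone, rose from 43.7, 41.4 and 46.8 to 67.6, 61.4 and 67.3 (0.57 ± 0.09). Acsl4, which loads membranes with polyunsaturated lipids, rose by 0.22 ± 0.06, a call lost without NPPC-Exo replicate 2 or 3 or miR-Exo replicate 1 (0.15 to 0.19). Hmox1, haem oxygenase, fell from 107, 114 and 126 to 75.3, 76.6 and 85.5 CPM (-0.55 ± 0.08).

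Antioxidant genes split. Of 29 NRF2 targets tested, 11 rose and 5 fell, and of 28 genes of glutathione and cystine, 8 rose and 4 fell (5 rose without NPPC-Exo replicate 1, and 2 fell without NPPC-Exo replicate 3 or miR-Exo replicate 1 or 2 or under library size alone). Sod2, the mitochondrial superoxide dismutase, rose from 81.6, 125 and 118 to 348, 345 and 338 CPM (1.67 ± 0.13), Mgst1, a membrane glutathione transferase, from 2.12, 3.13 and 3.06 to 15.1, 12.5 and 12.6 (2.27 ± 0.27), and Glrx, glutaredoxin, from 32.1, 32.9 and 31.4 to 65.6, 70.1 and 64.7 (1.06 ± 0.07). Taldo1 (0.64), Cat (0.44) and the high-end gene Gstp1 (0.43) rose too. Txnrd1, the thioredoxin reductase, fell from 289, 307 and 298 to 205, 215 and 203 (-0.52 ± 0.05), as did Nqo1 (-0.45 ± 0.07) and Gpx7 (-0.70 ± 0.08).

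**Figure D3:**
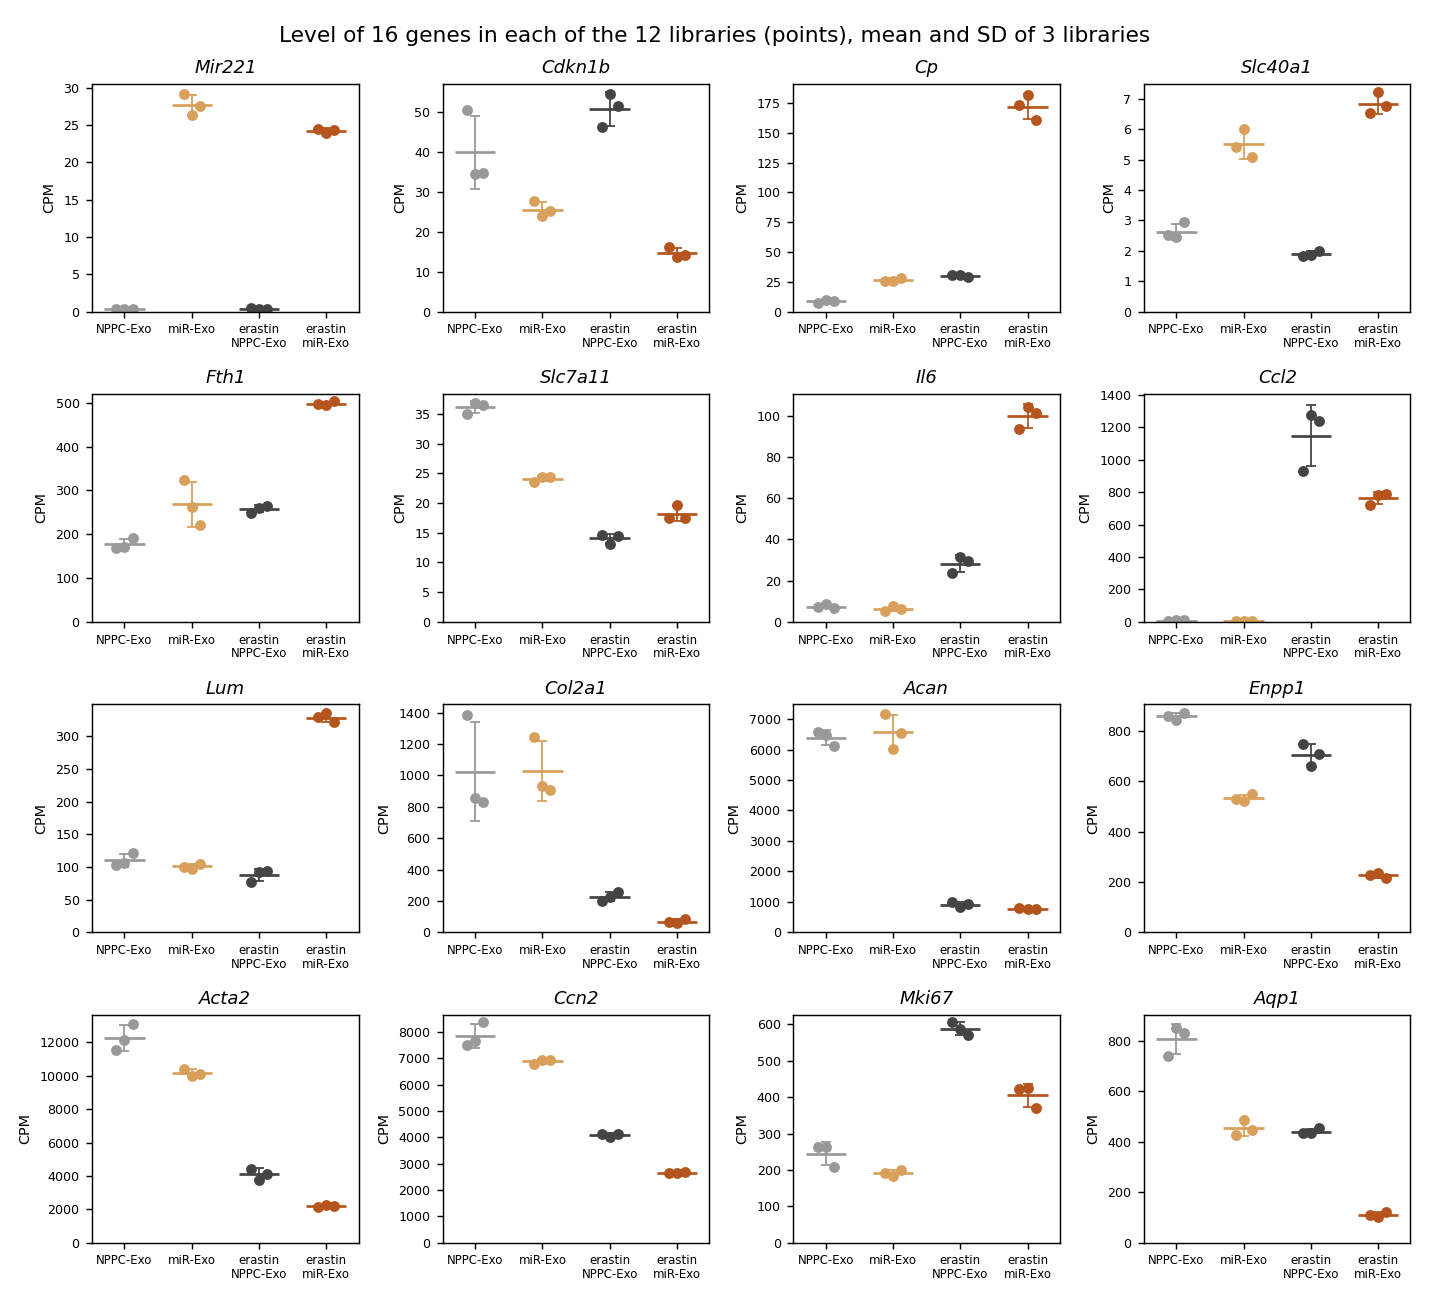
CPM of 16 genes in each of the 12 libraries (points), with the mean and the standard deviation of 3 libraries per group (lines and bars), every axis starting at 0. Il6 and Lum are higher in the erastin miR-Exo libraries than in each of the other 9, while Mir221 is high in both miR-Exo groups.

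Inflammatory genes rose in part. Of 17 cytokines and growth factors of inflammation tested, 9 rose and 2 fell, with a median of 1.13 (4 rose without NPPC-Exo replicate 1, and 4 to 7 on leaving out any 1 library). Il6 had 23.7, 31.6 and 29.4 CPM against 93.5, 105 and 102 (1.82 ± 0.13, adjusted p = 5e-07). Il1rn, the interleukin-1 receptor antagonist, rose from 0.942, 1.47 and 1.10 to 4.07, 4.21 and 4.44 (1.85 ± 0.24), and Csf3, the granulocyte factor, from 2.33, 4.31 and 3.82 to 10.1, 9.04 and 10.00 (1.48 ± 0.32). Il1a stood at 1.35 ± 0.38, not called by DESeq2 (adjusted p = 0.376) nor without replicate 1 or 2 of either group (1.21 to 1.36). Il33, a nuclear alarmin, fell from 5.98, 6.17 and 6.67 to 2.90, 3.09 and 2.21 (-1.20 ± 0.21). Osm had a mean of 0.173 CPM with NPPC-Exo and no count with miR-Exo, which makes it at least 3.74-fold lower. Its call was lost without any library but NPPC-Exo replicate 2, with adjusted p of 0.0537 to 0.067.

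Among 15 chemokines, 5 rose and 1 fell, 40% called beside 31.3% of all genes. Their median was 0.105 (-0.0943 to 0.528 without 1 library, and 3 higher without any miR-Exo library). Ccl20, which draws lymphocytes, rose from 4.59, 7.26 and 6.45 to 28.0, 25.4 and 27.3 CPM (2.14 ± 0.26), and the high-end gene Cxcl3 from 42.0, 104 and 91.0 to 210.2, 171 and 247 (1.41 ± 0.29). Ccl2, the monocyte chemokine, fell from 929.6, 1273 and 1240.2 to 723, 782 and 787 (-0.59 ± 0.15, adjusted p = 0.011), which limma on log2(FPKM + 0.1) did not call (-0.47, adjusted p = 0.0619). The neutrophil chemokines Cxcl1 (0.69 ± 0.21) and Cxcl2 (1.13 ± 0.34, high-end) lost their calls without any miR-Exo library (0.65 to 0.71 for Cxcl1), and Cxcl2 also without NPPC-Exo replicate 1 or 3 (0.79 to 1.18 over these 5). Cxcl1 was also not called with only the groups compared (adjusted p = 0.0537), nor Cxcl2 by DESeq2 (adjusted p = 0.212) or limma on log2(FPKM + 0.1) (adjusted p = 0.0682). In these chemokines NPPC-Exo replicate 1 lay well below its fellows, at 99.4 CPM against 227 and 209 for Cxcl1.

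Genes of the acute phase and complement were higher in 10 of 15 tested, with a median of 0.906. By edgeR 0 fell, by DESeq2 1, and 10 rose on leaving out any 1 library. Lcn2, the siderophore binder lipocalin-2 and a high-end gene, rose from 27.0, 46.1 and 37.1 to 170.3, 168 and 169 CPM (2.20 ± 0.27). C3, the central complement protein, had 18.2, 31.3 and 24.7 against 63.5, 63.1 and 61.2 (1.34 ± 0.24), and the protease C1s 65.4, 76.3 and 75.4 against 140.1, 154 and 147 (1.02 ± 0.08). Its partner C1r rose by 0.49 ± 0.05. Inhibitors of the cascade rose beside it: Serping1 from 3.77, 3.77 and 3.67 to 10.3, 8.34 and 7.25 CPM (1.21 ± 0.19) and Cd55, the decay accelerating factor, by 0.91 ± 0.11. Summed myeloid markers were 14.22 to 19.97 CPM with NPPC-Exo and 27.2 to 35.1 with miR-Exo, though the median log2 fold change of the 8 tested was -0.294. The part of these markers in the changes of cytokines, acute phase and complement was not tested.

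In prostaglandin synthesis, 5 of 14 genes rose and 0 fell, by edgeR and DESeq2 alike, with a median of 0.40. The share called was 35.7%, near the 31.3% of all genes. Ptges, the inducible prostaglandin E synthase and a high-end gene, had 16.1, 25.1 and 21.0 CPM against 49.1, 51.3 and 57.0 (1.34 ± 0.24), Pla2g4a, which frees arachidonic acid, 65.0, 58.7 and 63.3 against 97.9, 102 and 88.5 (0.63 ± 0.07), and Ptgfr, the prostaglandin F receptor, 6.39, 7.35 and 8.65 against 28.8, 29.6 and 27.5 (1.94 ± 0.12). NF-kB subunits and feedback genes were split, with 3 higher and 4 lower of 18 (5 and 4 under library size alone), 38.9% called beside 31.3% of all genes. Nfkbiz, a co-activator of Il6 and Lcn2 and a high-end gene, rose by 1.09 ± 0.10, whereas Nfkbie (-1.34 ± 0.21, high-end), Nfkb2 (-0.56 ± 0.09) and the brake Tnfaip3 (-0.41 ± 0.08) fell. Of 22 interferon response genes 4 rose (2 without replicate 1 or 2 of either group) and 3 fell, 31.8% called beside 31.3% of all genes. Stat2 rose (0.30 ± 0.06) and Usp18 fell (-0.65 ± 0.16). Oas1a had a mean of 0.505 CPM with NPPC-Exo and no count with miR-Exo, at least 10.9-fold lower. Of 15 genes of antigen presentation, 1 was called, Cd74, the invariant chain, at 0.73 ± 0.23, and leaving out any library ended that call (0.67 to 0.76).

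The disc's own matrix changed in both directions, with 14 of 32 genes lower, 5 higher and a median of -0.292. Col2a1, type II collagen and a low-end gene, fell from 202, 223 and 255 to 63.5, 56.6 and 83.8 CPM (-1.74 ± 0.20, adjusted p = 3.9e-05). Hapln1, the link protein that ties aggrecan to hyaluronan, fell from 20.7, 20.1 and 21.2 to 7.93, 5.79 and 6.57 (-1.61 ± 0.10). Acan, aggrecan itself, had 988, 826 and 919.8 against 789, 749.6 and 779.9 (-0.24 ± 0.07), groups without overlap, and this small fall was not called by library size alone (-0.13) or without NPPC-Exo replicate 1 (-0.20, adjusted p = 0.0548). Other proteoglycans went the other way. Lum, lumican, which binds collagen fibrils, rose from 77.5, 92.3 and 93.3 to 329, 336 and 321 (1.91 ± 0.08, adjusted p = 1.3e-08), and Vcan, the large proteoglycan versican, from 1152, 1346 and 1250.5 to 2516, 2498 and 2213 (0.95 ± 0.07). Of 16 transcription factors of chondrocytes and disc, 6 fell and 2 rose, with a median of -0.675. Sox9, which drives Acan and Col2a1 and is a low-end gene, fell from 14.0, 10.5 and 13.9 to 5.98, 4.85 and 6.19 (-1.18 ± 0.20), Runx1, also low-end, (-1.13 ± 0.29), and Pax1 (-0.65 ± 0.09). Hif1a rose from 163, 163 and 167 to 247, 247 and 214 (0.53 ± 0.06).

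Of 26 enzymes that degrade matrix, 13 rose and 3 fell (19 and 2 under library size alone), with a median of 0.309. Among the 17 outside both ends, 9 rose and 2 fell. Plat, the tissue plasminogen activator and a high-end gene, rose from 146, 177 and 168 to 364, 387 and 376 CPM (1.20 ± 0.10), Adamts1 from 406, 349 and 353 to 566, 585 and 561 (0.63 ± 0.06), and Mmp16 from 41.1, 40.1 and 41.2 to 55.4, 59.1 and 56.6 (0.48 ± 0.06). The lysosomal protease Ctsb rose by 0.39 ± 0.04. Aggrecanases and collagenases are the enzymes best known from degenerating discs. Adamts4 (high-end) was at 0.65 ± 0.17, Mmp3 at 0.46 ± 0.12, and both lost the call without NPPC-Exo replicate 1 (0.50 and 0.30), Mmp3 also without miR-Exo replicate 1 or 2 (0.43 and 0.40). Mmp13 had 59.7, 119 and 99.4 and 116, 118 and 119 CPM (0.34 ± 0.21, not called), and Adamts5 42.5, 48.2 and 48.2 and 54.3, 51.6 and 46.1 (0.13 ± 0.08, not called, though called at 0.23 under library size alone). Of 10 protease inhibitors 2 rose and 3 fell (3 and 2 under library size alone), with Timp2 lower at 141, 123 and 128 against 91.1, 88.2 and 94.6 (-0.52 ± 0.06).

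Fibrous matrix fell broadly, with 21 of 32 genes lower and 4 higher, a median of -0.397, and 15 of the 25 genes outside both ends lower. Fn1, fibronectin, had 31643, 31187 and 31861 CPM against 21094, 21012 and 19950.0 (-0.61 ± 0.05, adjusted p = 2.3e-06). Thbs1, thrombospondin-1, an activator of TGF-beta, had 8338, 7126 and 7637 against 3889, 3853 and 3819.5 (-0.999 ± 0.06). Col1a1 (low-end) fell from 11731, 13173 and 14637 to 7269.7, 6118 and 8601 (-0.85 ± 0.15), and the enzymes that finish collagen fell too: Loxl2, which crosslinks it, (-0.70 ± 0.05) and its chaperone Serpinh1 (low-end) (-0.72 ± 0.10). Col14a1, which decorates fibrils, rose from 178, 169.6 and 174 to 272, 262 and 245 (0.58 ± 0.05). In the basement membrane, where 7 of 20 fell and 5 rose (3 without replicate 1 or 3 of either group, and 6 fell and 7 rose under library size alone), Nid1 fell from 456, 415 and 429 to 231, 224 and 211 (-0.97 ± 0.06) and Nid2 (-0.84 ± 0.08).

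Receptors for that matrix fell in 12 of 24 genes and rose in 6. Itgb1, the beta-1 integrin shared by most collagen and fibronectin receptors, had 2966, 2835 and 2944 CPM against 1875, 1883 and 1726 (-0.67 ± 0.04). Itga4 fell (-1.38 ± 0.12) and the adaptor Bcar1 (low-end) (-1.15 ± 0.12). Itga8, from 130.1, 126 and 141 to 208, 198 and 199.8 (0.61 ± 0.05), and the collagen receptor Itga2 (1.01 ± 0.18) rose. Of 40 genes of TGF-beta and BMP signalling 12 fell and 7 rose (3 or 4 without replicate 1 or 2 of either group). The ligand Tgfb2 fell from 214, 184 and 194 to 127, 132 and 114 (-0.66 ± 0.07), as did Bmp4 (low-end, -1.03 ± 0.14), and the activin antagonist Fst rose from 36.8, 36.8 and 33.5 to 64.6, 66.5 and 63.1 (0.86 ± 0.06). Of 17 genes of mineralisation, 3 rose and 3 fell, 35.3% called beside 31.3% of all genes. Enpp1, which makes the mineral inhibitor pyrophosphate, fell from 749, 663 and 709 to 227, 237 and 214 (-1.65 ± 0.05, adjusted p = 1.4e-09), and Spp1, osteopontin, from 2368, 2352 and 2404 to 1369, 1487 and 1551 (-0.69 ± 0.06).

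The actin and contractile programme was lower in most members. Of 30 genes of stress fibres and contraction, 25 fell and 1 rose, 86.7% called, with a median of -0.529, and 22 of the 27 genes outside both ends fell. Under library size alone 20 fell and 2 rose. Acta2, smooth muscle actin, had 4442, 3743 and 4137 CPM against 2143, 2236 and 2195 (-0.91 ± 0.06, adjusted p = 2.5e-07), and Tagln, the actin binder transgelin, 3413, 2937 and 3180.0 against 1614, 1723 and 1823 (-0.88 ± 0.07). Actg2, gamma smooth muscle actin, dropped from 74.2, 59.4 and 67.1 to 20.5, 20.9 and 22.9 (-1.64 ± 0.08), and Tpm1, a tropomyosin, from 731, 648 and 677 to 401, 417 and 409 (-0.75 ± 0.05). Actb (low-end) was at -0.42 ± 0.13, a call lost without NPPC-Exo replicate 1 or 3 or miR-Exo replicate 1 (-0.41 to -0.42) and under library size alone (-0.32). Summed markers of smooth muscle and pericytes, some of them on this list, were 7336 to 8583 CPM with NPPC-Exo and 4323 to 4608 with miR-Exo, and 7 of the 12 fell (4 under library size alone). The sum of skeletal muscle markers was 13.2 to 19.6 CPM against 7.92 to 10.19. Of the 10 tested 2 fell, Acta1 and Myh3, and 0 rose, 20% called beside 31.3% of all genes. The part of such cells was not tested.

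SRF, a transcription factor, and YAP, a co-activator of transcription, respond to actin tension, SRF through its own co-activator MRTF. Of 17 of their genes, 14 fell and 1 rose (11 and 1 under library size alone), with a median of -0.528. Ccn2, the matricellular target of both, had 4133, 4002 and 4148 CPM against 2633, 2639.7 and 2669.8 (-0.63 ± 0.04, adjusted p = 2.4e-07), and the receptor kinase Axl 946, 925 and 934 against 559, 548 and 584 (-0.73 ± 0.04). Genes of these regulators themselves were lower: Yap1 fell from 89.3, 91.1 and 86.9 to 57.7, 57.6 and 55.0 (-0.65 ± 0.05), Srf from 93.1, 79.9 and 92.9 to 59.3, 51.0 and 68.0 (-0.58 ± 0.09), and Mrtfa (low-end) (-0.72 ± 0.11). The member that rose was Ccn3, from 36.4, 38.9 and 42.3 to 95.1, 96.8 and 91.7 (1.27 ± 0.10).

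The promoters of 3 of these genes are shown because they hold the CArG box, the element SRF binds, searched by that name on both strands; no other motif was searched. Each is 250 bases before to 50 after the RefSeq start on GRCr8, read 5′ to 3′ on the gene's strand, with the box in capitals: Srf at 9:21923826-21924125 on the plus strand, Acta1, skeletal actin, at 19:68784145-68784444 on the minus strand, and Cnn2, calponin 2, at 7:10370263-10370562 on the minus strand.
Srf: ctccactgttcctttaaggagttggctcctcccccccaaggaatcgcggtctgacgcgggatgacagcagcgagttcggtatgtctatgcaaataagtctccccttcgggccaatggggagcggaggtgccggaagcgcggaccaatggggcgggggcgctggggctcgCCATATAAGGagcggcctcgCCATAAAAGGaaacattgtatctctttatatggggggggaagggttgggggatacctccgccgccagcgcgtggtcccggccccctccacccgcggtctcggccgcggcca
Acta1: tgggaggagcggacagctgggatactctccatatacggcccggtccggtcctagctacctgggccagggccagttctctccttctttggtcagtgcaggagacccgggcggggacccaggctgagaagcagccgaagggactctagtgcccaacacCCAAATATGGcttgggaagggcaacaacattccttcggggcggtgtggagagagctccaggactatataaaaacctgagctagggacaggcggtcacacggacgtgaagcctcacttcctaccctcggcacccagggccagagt
Cnn2: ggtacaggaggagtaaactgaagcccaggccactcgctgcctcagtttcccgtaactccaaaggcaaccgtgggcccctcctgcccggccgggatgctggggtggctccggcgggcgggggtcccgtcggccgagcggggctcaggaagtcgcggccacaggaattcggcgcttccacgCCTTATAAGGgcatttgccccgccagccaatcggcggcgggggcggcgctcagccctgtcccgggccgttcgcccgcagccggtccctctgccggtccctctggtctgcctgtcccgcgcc
A box was found in 548 of 33469 promoters of this length (1.64%), in 3 of 24 promoters matched for the contractile list (12.5%) and in 3 of 13 for the SRF and YAP list (23.1%). Of the contractile promoters 19 belong to genes that fell, 2 of them with a box, and all 13 of the other list belong to genes that fell. That list was drawn up as targets of SRF and YAP, so its share with a box is no independent finding. With all 13 lower, it cannot relate a box to a fall. The 3 shown were chosen among genes that fell; of the other genes with a box, Fhl2 and Fhl1 fell and Actc1 was not called. A match of letters is no measured site, and no match says only that the letters are not in this window. Srf, with 2 boxes, fell as given above, Acta1 fell from 9.64, 5.11 and 7.53 to 1.73, 2.96 and 1.28 CPM (-1.89 ± 0.25), and Cnn2 from 313, 281 and 302 to 178, 179 and 208 (-0.67 ± 0.06).

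Of 39 genes of mitosis, 29 fell and 0 rose by edgeR (34 and 0 by DESeq2), with a median of -0.30 (19 fell under library size alone and 26 to 32 on leaving out 1 library), and every tested member had a log2 fold change under 0. Mki67, the proliferation marker, had 606, 588 and 571 CPM against 421, 426 and 369 (-0.54 ± 0.08), Kif20a, a kinesin of cell separation, 244, 248 and 239 against 195, 197 and 189 (-0.33 ± 0.04), and Espl1, separase, 124, 129 and 124 against 93.2, 87.2 and 86.7 (-0.50 ± 0.07). Cdc20 (low-end), the activator of the anaphase complex, fell (-1.08 ± 0.13). In DNA replication 14 of 39 fell and 4 rose (2 without any 1 library but miR-Exo replicate 1, and 9 under library size alone, where 12 fell), with Uhrf1, which maintains methylation, at 115, 115 and 125 against 70.2, 63.7 and 74.1 (-0.77 ± 0.06), the helicase subunit Mcm5 at -0.52 ± 0.07 and the polymerase Pold1 at -1.15 ± 0.16.

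The regulators of G1 split, with 5 of 19 lower and 4 higher (5 and 6 under library size alone). Ccnd1, cyclin D1, which opens G1, fell from 444, 519 and 492 to 248, 250.2 and 268 CPM (-0.92 ± 0.06), and its kinase Cdk6 from 37.6, 36.5 and 37.9 to 19.7, 19.6 and 19.5 (-0.93 ± 0.09). Ccne1, cyclin E1, rose from 37.9, 41.8 and 43.8 to 59.7, 63.1 and 58.3 (0.55 ± 0.07), and its kinase Cdk2 from 51.0, 51.6 and 51.6 to 83.3, 83.5 and 78.6 (0.67 ± 0.07). Cdkn1b, the inhibitor of those kinases, fell and Cdkn1c rose, as given above. Of 26 p53 targets, 6 fell and 5 rose, 42.3% called beside 31.3% of all genes, and under library size alone 3 fell and 8 rose. Aen, an exonuclease of apoptosis, had 107, 109 and 104 CPM against 56.8, 57.7 and 61.4 (-0.86 ± 0.05), and Pmaip1, the BH3-only protein NOXA, 285, 277 and 268 against 179, 179.8 and 178 (-0.63 ± 0.05). Of 34 genes of apoptosis 12 rose (7 without miR-Exo replicate 1) and 6 fell. The pore former Bak1 fell from 77.8, 79.3 and 78.7 to 42.5, 41.9 and 44.4 (-0.87 ± 0.06), and its relative Bok (-0.96 ± 0.13), while Birc2, an inhibitor of caspases, rose from 67.0, 69.6 and 68.0 to 107, 101 and 99.1 (0.58 ± 0.07).

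Stress programmes did not share a direction. Among 25 genes of the unfolded protein response, 14 fell and 3 rose (9 and 6 under library size alone), with a median of -0.159. Hyou1, a chaperone of the endoplasmic reticulum, had 394, 395 and 409 CPM against 269.8, 272 and 249.8 (-0.60 ± 0.05), the disulfide isomerase Pdia6 739, 752 and 759 against 512, 499 and 502 (-0.57 ± 0.05), and Manf 111, 141 and 131 against 72.1, 69.9 and 76.4 (-0.81 ± 0.09). Heat-shock genes of the cytosol went up in 8 of 19 and down in 3. Hspa8, the constitutive HSP70, rose from 1121, 1132 and 1159 to 1657, 1762 and 1672 (0.58 ± 0.06), and its exchange factor Hsph1 from 234, 261 and 254 to 388, 399.7 and 369.8 (0.63 ± 0.05). Of 37 ATF4 targets 12 rose and 4 fell. Atf3, itself a stress transcription factor, rose from 6.80, 7.25 and 7.25 to 20.9, 24.1 and 27.0 (1.76 ± 0.11), Sesn2 by 0.46 ± 0.05, and the amino acid importer Slc7a5 fell (-0.57 ± 0.05). Of 33 AP-1 and immediate early genes 8 rose and 7 fell, with Jun (low-end) at -1.10 ± 0.23 and the phosphatase Dusp4 at 1.63 ± 0.26. In cholesterol synthesis 11 of 27 fell and 4 rose (2 without any 1 library but miR-Exo replicate 3, and 7 fell under library size alone), with Idi1 going from 41.5, 40.5 and 40.7 to 23.6, 23.7 and 23.0 (-0.80 ± 0.06).

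Genes of the primary cilium, the cell's antenna for hedgehog and flow, were higher in 23 of 29 tested and lower in 0, by edgeR and DESeq2 alike, 79.3% called, with a median of 0.397 (0.501 under library size alone, where 24 rose). Tctn1, of the cilium's gate, had 16.6, 21.3 and 19.3 CPM against 34.4, 32.0 and 37.6 (0.86 ± 0.09). Ift122 rose from 29.1, 34.1 and 30.5 to 50.8, 51.6 and 52.2 (0.72 ± 0.08) and Wdr19 from 17.4, 13.7 and 16.6 to 28.9, 29.5 and 27.0 (0.84 ± 0.10), both of the complex that carries cargo back from the tip, as did its motor Dync2h1, from 38.9, 46.5 and 38.3 to 75.6, 70.8 and 62.7 (0.76 ± 0.09). Outside both ends 22 of 26 rose. The share of cells with a cilium was not measured.

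Lysosome and autophagy genes were higher in 17 of 40 and lower in 4 (2 without NPPC-Exo replicate 2 or under library size alone), and those that rose included the proteases Tpp1, at 66.5, 67.7 and 69.3 against 108, 111 and 108 CPM (0.69 ± 0.05), and Ctsd, at 210.4, 213 and 214 against 316, 317 and 339.7 (0.61 ± 0.06). Of 32 genes of glycolysis and hypoxia 14 rose and 4 fell. Hk2, hexokinase 2, rose from 56.3, 57.2 and 58.6 to 81.2, 80.3 and 90.6 (0.55 ± 0.06), and Ldha, lactate dehydrogenase, from 1149, 1127 and 1189.6 to 1488, 1564 and 1580.0 (0.42 ± 0.06), while Ca9, a hypoxia-induced carbonic anhydrase, fell from 171, 139 and 153 to 93.8, 104 and 96.0 (-0.66 ± 0.07). Nuclear genes of the respiratory chain were called in 18.2% of 33, under the 31.3% of all genes, and ribosomal proteins in 15.2% of 33. All 3 respiratory genes that fell, Ndufs7 (-1.82 ± 0.42), Cox5b (-1.30 ± 0.31) and Ndufs3 (-0.50 ± 0.13), are low-end genes. Of the mitochondrial genome, Mt-nd4 rose by 0.37 ± 0.06, Mt-co1 by 0.19 ± 0.04 and Mt-cyb by 0.17 ± 0.04, the last 2 not without miR-Exo replicate 1 (0.13 and 0.12).

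Water channels, vessels and nerves are treated together as traits of the disc. Aqp1, a water channel, fell from 433, 433 and 453 to 109.9, 103 and 121 CPM (-1.98 ± 0.07, adjusted p = 4.4e-09), Slc6a6, the taurine importer that balances osmotic load, from 227, 224 and 227 to 102, 96.5 and 101 (-1.18 ± 0.06), and Akr1b1, which makes sorbitol, from 352, 379 and 374 to 246, 256 and 257 (-0.54 ± 0.06). In that list 5 of 16 fell and 2 rose (5 and 5 under library size alone). In the VEGF family and endothelial adhesion 7 of 17 fell and 3 rose. The placental growth factor Pgf (high-end) had 17.7, 21.9 and 24.7 CPM against 9.16, 10.2 and 8.90 (-1.18 ± 0.13), and Angptl4, a lipase inhibitor, 90.5, 110.0 and 109 against 169, 165 and 172 (0.71 ± 0.09). Of 25 neurotrophins and guidance genes 5 rose and 6 fell (5 and 4 under library size alone). Bdnf, the brain-derived neurotrophic factor, rose from 11.0, 13.5 and 12.8 to 24.9, 21.7 and 22.3 (0.89 ± 0.10), and the guidance cues Ntn4 from 23.1, 25.7 and 24.9 to 64.2, 59.2 and 67.2 (1.37 ± 0.08) and Slit2 by 0.66 ± 0.07. Genes of tetraspanins and exosome release were called lower in 8 of 34 and higher in 4, 35.3% beside 31.3% of all genes. Library size alone turned this to 4 lower and 9 higher. Flot2 was at -0.64 ± 0.07 and Flot1 at 0.42 ± 0.09.

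The labelled cell type could be checked in part. Acan had a mean of 134 FPKM with NPPC-Exo and 122 with miR-Exo, Col2a1 51.0 and 16.4, and Sox9 3.82 and 1.81. The notochordal markers Tbxt, Krt19 and Shh are on the list of nucleus pulposus markers, but their own values are not reported here. Of 11 nucleus pulposus markers tested 4 fell and 1 rose, the last being Cd24 (0.42 ± 0.10). Summed, the markers of this list were 1140 to 1290 CPM with NPPC-Exo and 883 to 951 with miR-Exo. Of 8 myeloid markers tested 3 rose and 0 fell, 37.5% called beside 31.3% of all genes. The 3 were Cd14 (0.81 ± 0.15), Cd68 (1.22 ± 0.35, lost without NPPC-Exo replicate 1 or miR-Exo replicate 1 or 2, at 1.00 to 1.15) and the kinase Fgr (2.17 ± 0.29). The list had a median of -0.294 (-0.776 to 0.583 on leaving out 1 library) and a lowest value of -2.56. Adgre1 had no count in the 6 libraries. Summed endothelial markers were 35.7 to 37.8 against 21.9 to 28.1 CPM, with Kdr and Tie1 at no count. Gzmb, a lymphocyte protease, had no count with NPPC-Exo and a mean of 0.261 CPM with miR-Exo, at least 5.07-fold higher, and Cd8a and Nkg7 had none in either group.

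Summed annulus and tendon markers, which include fibrous matrix genes, were 19600 to 23000 CPM with NPPC-Exo and 11300 to 15200 with miR-Exo, and 4 of 10 fell and 2 rose, with Thbs4 at -0.88 ± 0.07 and Pdgfra at 0.40 ± 0.08. Of 8 neural and glial markers, summed at 542 to 609 against 407 to 427 CPM, 3 fell and 2 rose, with S100b, also made by chondrocytes, at 6.18, 7.06 and 6.18 against 17.5, 21.2 and 18.6 CPM (1.56 ± 0.13). Of 14 disc progenitor markers 4 fell and 2 rose. Adipocyte, erythroid and epithelial lists had 2, 2 and 3 members with enough counts to test.

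**Figure D4:**
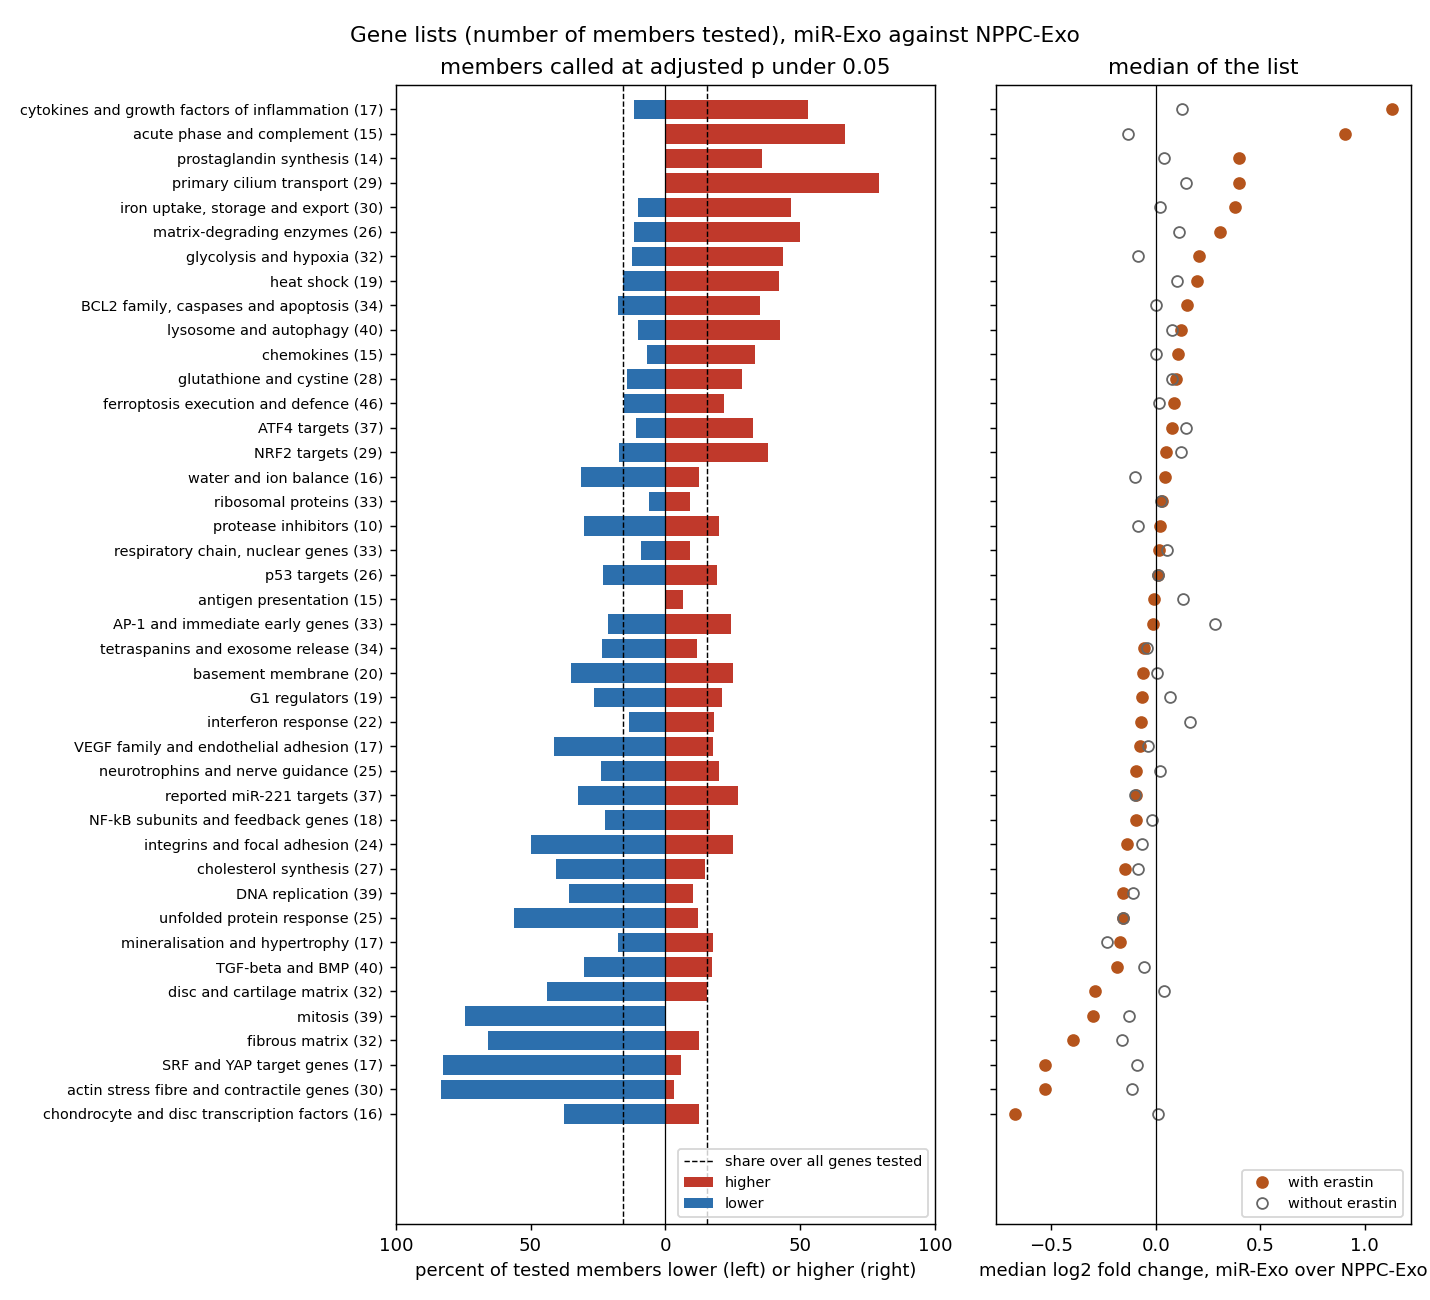
Left, percent of tested members called lower (blue, to the left) or higher (red, to the right) with erastin in 42 gene lists, with the share over all genes tested as dashed lines; right, median log2 fold change with erastin (filled) and without (open). The contractile list has a median of -0.529 with erastin and -0.115 without, and the cilium list 0.397 and 0.147.

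The same exosomes were compared without erastin in 6 other libraries. No library is in both comparisons, but both rest on the same fit and its shared estimate of spread. There 1669 genes changed (10.7%), 649 higher (4.15%) and 1020 lower (6.52%). The share of these that were higher was 38.9%, and 68.7% under library size alone. Both comparisons called 1084 genes, 22.1% of the erastin list and 64.9% of the list without it, and 1010 of these (93.2%) went the same way. The difference between the effects passed the test for 2006 genes (12.8%), 909 with the higher effect under erastin (5.81%) and 1097 with the lower (7.01%). Of the 4906 genes called with erastin, 1701 (34.7%) were among them, and 3205 (65.3%) were not called different. Without 1 library these 2006 genes became 1205 to 2419.

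**Figure D5:**
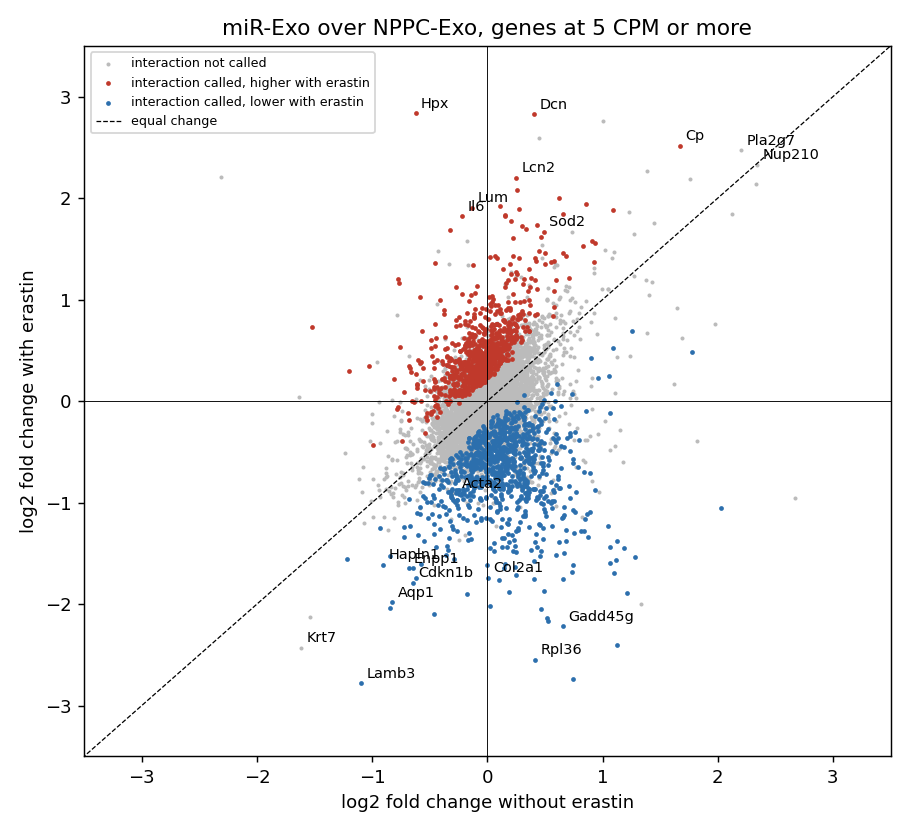
Log2 fold change of miR-Exo over NPPC-Exo with erastin (vertical axis) against that without it (horizontal axis) for 10048 genes at 5 CPM or more, coloured where the difference passed the test; the dashed line marks equal change. Hpx, Dcn, Lcn2 and Il6 lie high on the vertical axis near 0 on the horizontal, and Pla2g7 and Nup210 lie near the line.

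Genes fell into kinds by this test. Il6 rose with erastin and had 7.13, 8.45 and 6.71 CPM with NPPC-Exo and 5.47, 7.53 and 6.13 with miR-Exo without it, a difference between effects of 2.04 ± 0.19 (adjusted p = 8.7e-05). Lum had 104, 106 and 122 and 100.3, 97.2 and 105 CPM without erastin, a difference of 2.04 ± 0.11 (adjusted p = 1.7e-06). Both were thus higher with miR-Exo under erastin and not called without it. Cp rose in both settings, by 1.67 without erastin, and more with it (0.85 ± 0.12, adjusted p = 0.0014). Aqp1 fell in both, from 738, 848 and 829 to 426, 487 and 448 CPM without erastin, and further with it (-1.15 ± 0.10), as did Enpp1 (-0.96 ± 0.07). For Fn1 (-0.11 ± 0.07), Bak1 (0.07 ± 0.08) and Pla2g7 (0.27 ± 0.22) the effects were not called different, at adjusted p of 0.35, 0.64 and 0.48.

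By list, the difference between effects was called lower with erastin for 18 of the 30 contractile genes and higher for 1, and lower for 10 of the 17 SRF and YAP genes and higher for 1, beside 7.01% lower and 5.81% higher of all genes. Acta2 fell by 0.27 without erastin, and the difference was -0.64 ± 0.08 (adjusted p = 0.00071). For iron handling 13 of 30 were higher and 2 lower, and for the acute phase and complement 9 of 15 were higher. Slc39a14, for one, was at -0.17 without erastin, with a difference of 0.76 ± 0.07. In mitosis 5 of 39 were lower, and in the cilium list 6 of 29 were higher. Of the reported miR-221 targets 5 of 37 were higher and 5 lower, and Cdkn1b, at -0.64 without erastin, fell further with it (-1.15 ± 0.19, adjusted p = 0.0028).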

How the data were processed

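Total RNA of rat nucleus pulposus cells was extracted with TRIzol and sequenced as strand-marked libraries, per the labels' protocols. The authors deposited 1 table with raw counts per gene and FPKM for the 12 libraries. Per the submitters' processing notes, StringTie and the mRatBN7.2 build were used; the sources used here give no aligner, counter or version, and no coordinate of the deposited table is printed. Even values made up 57.3% of the counts between 1 and 20, so halved counts were run as an alternative.

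Genes were kept by filterByExpr (15650 of 21071). Scaling used trimmed means of M values, and counts were fitted with quasi-likelihood models on 4 group means over all 12 libraries (8 residual degrees of freedom), in R 4.3.3 with edgeR 4.0.16. The p values were adjusted by Benjamini-Hochberg over all genes tested, and a gene rose or fell, or was called, at an adjusted p under 0.05. Standard errors are the fold change over the root of F. CPM use the scaled library, and a fold against a group with no count is bounded by 3 counts per library. The alternatives used DESeq2 1.42.0 and limma 3.58.1 on log2(FPKM + 1) and log2(FPKM + 0.1), where fold changes of low genes are understated, other scalings and filters, a block for the replicate number, a fit on the compared groups alone, and each library dropped in turn. The component of the spread within groups, and the count without both its ends (10% each), were added after seeing the data. Where NPPC-Exo or miR-Exo replicates are named, the erastin libraries are meant unless stated.

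The comparison and all 55 gene lists were chosen with earlier results of these data known. Named genes were the 12 with the largest change each way (called, mean FPKM of at least 2 in the higher group, groups not overlapping, a proper symbol, no small RNA or clone name), the 4 smallest adjusted p values in each list, 27 genes fixed by hand, and 6 each way with the largest difference in FPKM; Srf, Mrtfa, Cnn2, Lcn2, Runx1, Jun, C3, Mki67, Arid1a, Serping1, Il1a, Serpinh1, Bmp4, Bcar1, Nqo1, Cxcl1, Cxcl2, Tf, Steap2, Itga2, Pold1, Ptpn4, Foxo3, Icam1, Bmf, Rb1, Osm, Oas1a, Col9a3 and Cdkn2a were chosen after their values were seen. A few genes that the rule names are not reported here. Of 1257 listed symbols 1177 were in the table, 7 of them through RefSeq names. Same-numbered deviations from the group means correlated at 0.0469, -0.0252 and 0.149 with erastin, and at 0.374, 0.168 and 0.128 without it. Without erastin the value was largest for replicate 1, and miR-Exo replicate 2 was closest to NPPC-Exo replicate 3. Whether the numbers pair libraries is thus not settled in either setting. A block within the libraries without erastin was added after seeing the data. No pair of libraries agreed within sampling noise. In simulated data over 15650 genes, 50.7% of 67 changes of 1.5-fold, 82.1% of 67 of 2-fold and 98.5% of 66 of 4-fold were recovered. Of 163 calls 5.52% were unchanged genes. The changes were set in well-counted genes alone, all other genes were equal over the groups, and noise was independent between genes. The data had 31.3% of genes called, low genes among them, and a shared component of spread without erastin. The simulated shares therefore do not describe the calls made here.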

Additional observations from a re-analysis of the deposited data

Results flagged for a closer look

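Among the 271 named genes tested, 156 passed the test of a different miR-Exo effect with and without erastin, beside 12.8% of all genes tested. Many named genes were picked by their change with erastin, which is part of this difference. Their count therefore does not describe genes in general. Of the 156, 51 differed by at least 1 on the log2 scale, 16 higher with erastin and 35 lower. Each value that follows is the log2 effect of miR-Exo with erastin minus that without it, called by edgeR's quasi-likelihood test at an adjusted p under 0.05. They stand here because the effects in the 2 settings differed.

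The effect was higher with erastin for Hpx (3.46), Dcn (2.43), Cd74 (2.25), Il6 (2.04), Lum (2.04), Lcn2 (1.95), Lypd1 (1.87), Ptges (1.46), Ciita (1.39), Mmp13 (1.37), Il1rn (1.36), Sod2 (1.18), Ptgfr (1.08), Ccn3 (1.02) and C1s (1.01). Hpx, Dcn, Il6 and Lum rose with erastin and were not called without it, and Cd74, Ciita and Mmp13 fell without erastin, and of these Cd74 rose with it. For Gzmb (7.93), with no count in 1 group, the fitted value depends on the prior count and is no bound.

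The effect was lower with erastin for the low-end genes Sox9 (-1.12), Bmp4 (-1.14), Bcar1 (-1.15), Cdkn1b (-1.15), Cdc20 (-1.16), Runx1 (-1.64), Col2a1 (-1.74), Jun (-1.86), Cox5b (-2.06), Rps10 (-2.10), Hmga1 (-2.66), Col9a2 (-2.70), Rplp1 (-2.80), Ndufs7 (-2.81), Gadd45g (-2.87), Rpl36 (-2.96), Hist1h2bq (-3.48) and Rps10 (-3.52), where Rps10 has 2 genes of that symbol in the table. The part of the component in these was not tested. Outside the low end it was lower for Actg2 (-1.001), Pold1 (-1.09), Aqp1 (-1.15), Itga4 (-1.18), Acta1 (-1.20) and Pgf (-1.23). The same held for Nfkbie (-1.49), Lamb3 (-1.68), Crabp1 (-1.70), Cdkn2a (-2.37), Col9a3 (-2.46), Tnfaip8l1 (-2.70), G0s2 (-3.15) and Nme3 (-4.08). Pgf, Nfkbie and Lamb3 are high-end genes, as given above. From Cdkn2a to Nme3 the standard errors ran from 0.52 to 0.73. A gene outside the low end may also be one too low to be ranked. Slpi (-3.81 ± 1.09) rose in both settings, by a fitted 2.61 with erastin and 6.43 without it. Its levels without erastin are not reported here. Osm (-8.08) and the erythroid gene Slc4a1 (-12.51) had no count in 1 group, so these fitted values are no bounds. With the replicate number as a block over all libraries, the difference was not called for Rpl36 (-3.23, adjusted p = 0.0553), Acta1 (-1.19, adjusted p = 0.051), Osm (adjusted p = 0.0568) and Slc4a1 (adjusted p = 0.0904). With a block among the libraries without erastin it was not called for Slpi (-3.81, adjusted p = 0.0731) and Slc4a1 (adjusted p = 0.0539).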

How the results depend on the processing

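The count of genes changed with erastin (4906) ranged from 4498 to 5801 over the other scalings, filters, tools and the replicate block, from 3784 to 4657 on leaving out 1 library, and was 4170 without both ends of the component. Its share of higher calls was 49.7%, and 68.6%, 67.9% and 67.6% under library size alone and limma on log2(FPKM + 1) and log2(FPKM + 0.1). The 783 genes changed at least 2-fold became 333 with a minimum of 5 CPM, where fewer genes are tested, and 278 with limma on log2(FPKM + 1), which shrinks low genes, and 622 to 874 on leaving out 1 library. The 1669 genes changed without erastin became 970 to 1854 on leaving out 1 library, lowest without NPPC-Exo replicate 2 and 1042 without miR-Exo replicate 2 (both without erastin), and were 1129 with only the groups compared. The 2006 genes with a different effect became 1205 to 2419, with 1205 without erastin NPPC-Exo replicate 3, 1227 and 1300 without erastin miR-Exo replicates 1 and 2, and 1218 and 1272 without NPPC-Exo replicate 2 and miR-Exo replicate 1 of the unstressed libraries. The causes were not tested. With the replicate block, the calls numbered 4847, 750, 1560 and 1928. A block among the libraries without erastin gave 1958 genes changed without it and 2358 with a different effect. Whether the replicate numbers pair libraries is not settled. Of 156 named genes with a different effect, 148 stayed called with the block over all libraries and 153 with that among the libraries without erastin. Of 247 named genes called, 230 to 238 were called in the same direction on leaving out 1 library and 240 to 247 under the scalings, tools, no filter and the block, and no named gene reversed. Many named genes were picked for a strong change with erastin, so these counts do not describe calls in general. Of all genes called with erastin, 74.4% to 85.3% were called again on leaving out 1 library. The depth limits genes near 0.05 CPM. Beside bounds, levels this low or without a count enter in the counts of Mir222 and the fitted values of Gzmb, Osm and Slc4a1. They also enter in markers without a count and in the medians and sums of lists.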
